A study of Homo sapiens with 24 samples.

Results

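The 9 hematopoietic growth factor receptors described here are CSF2RB, CSF2RA, IL3RA, EPOR, CSF3R, IL6ST, KIT, CSF1R and FLT3, taken by symbol from the 25728 genes counted in each library. Of these 9 genes, 8 passed the filter on low counts and were tested among 14588 genes, and FLT3 was under it. The 24 RNA libraries come from human acute myeloid leukemia lines, namely TF-1, UT-7 and UCSD-AML1, all 3 described in the series as driven by the transcription factor EVI1. Each line received 3 mM cyclocreatine, a creatine analogue that creatine kinase phosphorylates, or vehicle, and RNA was taken after 24 h. The 6 groups were thus cyclocreatine-treated and vehicle-treated cells of each line, with 4 libraries per group and no added gene or allele. Each line is 1 established culture of cells. Nothing in the labels tells if replicates were grown apart, so the p-values speak of the scatter of these 24 libraries, which may be technical. The labels leave out whether the medium held a growth factor.

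Blood cell growth factors act through receptors of several families. The receptors for GM-CSF, IL-3 and IL-5 pair a ligand-specific alpha chain with the common beta chain CSF2RB, EPOR and CSF3R form homodimers, and IL6ST (gp130) is the signalling chain shared by the IL-6 family; all of these lack a kinase of their own and signal through bound Janus kinases to STAT proteins. KIT, CSF1R and FLT3 are receptors with a built-in tyrosine kinase, for stem cell factor, for CSF1 and IL-34, and for FLT3 ligand. In blood formation EPOR marks the erythroid branch, CSF3R the granulocyte branch and CSF1R the monocyte branch, whereas KIT and FLT3 are receptors of stem and progenitor cells. TF-1 and UT-7 are known as lines that depend on an added cytokine, and whether UCSD-AML1 does so too was not examined here.

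Promoter windows were taken from RefSeq (GRCh38.p14; the deposited counts were made on an earlier build, so these positions belong to the reference alone), each holding the 250 bases before an annotated start, and 8 of the 9 receptors matched, all but CSF2RB. Both strands of the 12 windows were searched for the GATA factor motif AGATAA, the PU.1 motif GAGGAA, the C/EBP motif TTGCAA, the RUNX motif TGTGGT and the STAT motif TTCNNNGAA. The windows below belong to EPOR and CSF3R, whose transcripts passed the test in all 3 lines, to CSF1R, which had the widest range between lines, and to CSF2RA, whose X and Y copies cannot be told apart. They are written 5′ to 3′ on the gene's strand with motif matches in capitals, for EPOR at chr19:11384315-11384564 (minus strand), for the second CSF3R start at chr1:36482914-36483163 (minus strand), for the second CSF1R start at chr5:150086555-150086804 (minus strand) and for CSF2RA at chrX:1268564-1268813 (plus strand).
EPOR: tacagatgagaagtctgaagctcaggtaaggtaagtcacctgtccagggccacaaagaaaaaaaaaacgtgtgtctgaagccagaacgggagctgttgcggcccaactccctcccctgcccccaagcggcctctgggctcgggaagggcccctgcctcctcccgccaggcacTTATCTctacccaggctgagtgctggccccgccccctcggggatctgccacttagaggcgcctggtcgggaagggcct
CSF3R: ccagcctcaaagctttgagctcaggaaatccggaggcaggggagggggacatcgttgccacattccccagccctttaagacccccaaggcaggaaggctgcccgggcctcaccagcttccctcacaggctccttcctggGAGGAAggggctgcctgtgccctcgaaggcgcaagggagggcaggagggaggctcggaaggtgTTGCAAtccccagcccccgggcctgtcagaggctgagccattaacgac
CSF1R: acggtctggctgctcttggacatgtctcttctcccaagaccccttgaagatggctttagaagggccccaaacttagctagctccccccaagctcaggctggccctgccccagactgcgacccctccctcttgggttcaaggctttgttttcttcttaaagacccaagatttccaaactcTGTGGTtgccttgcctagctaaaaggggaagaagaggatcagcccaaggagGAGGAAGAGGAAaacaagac
CSF2RA: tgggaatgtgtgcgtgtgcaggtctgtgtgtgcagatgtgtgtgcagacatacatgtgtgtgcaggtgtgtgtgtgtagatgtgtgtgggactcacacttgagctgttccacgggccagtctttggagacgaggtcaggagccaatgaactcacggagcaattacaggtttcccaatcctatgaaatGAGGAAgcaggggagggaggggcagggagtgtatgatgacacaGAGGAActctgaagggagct
The EPOR window held the reverse complement of AGATAA 78 bases before the start, a motif present in 9.17% of 35116 windows of this length. The CSF3R window held GAGGAA 111 bases and TTGCAA 48 bases before the start, motifs found in 23.6% and 4.73% of all windows. In the CSF1R window TGTGGT lay 71 bases before the start (11% of all windows), and GAGGAA lay 20 and 14 bases before it, side by side. CSF2RA held GAGGAA 63 and 20 bases before its start, FLT3 held its reverse complement 87 bases before, and IL3RA held TTCNNNGAA 199 and 179 bases before (6.57% of all windows). The KIT and IL6ST windows and the first windows of CSF3R and CSF1R, at the upstream starts, held none of these motifs. A match is a stretch of letters and was not tied to binding of any factor.

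Library totals ran from 12794998 to 21200662 counts, and counts of all 36 pairs of libraries within a group differed by more than counting error (chi-square per degree of freedom 1.29 to 19.3). The 3 pairs with TF-1 cyclocreatine replicate 1 gave 15.8 to 19.3, against 3.01 to 3.96 for the other 3 pairs of that group, so this library stood apart, and the TF-1 effect of each receptor is also given without it. The blood markers PTPRC, SPI1, GATA1 and ITGA2B had counts in every group. CD38 was at 0 in all UCSD-AML1 libraries, and CD34, a progenitor marker, averaged 242 CPM (counts scaled to TMM-adjusted library totals) in TF-1, 2.19 CPM in UT-7 and 584 CPM in UCSD-AML1 under vehicle. Summed markers of lymphoid cells (9 genes) spanned 4.14 to 91.9 CPM over the libraries and those of stromal and epithelial cells (11 genes) 17.7 to 253 CPM. MS4A1 was at 0 throughout. A few genes made up most of the larger sums under vehicle. In UCSD-AML1 these were CD79A (36.9 CPM) and CD79B (37.8 CPM), and KRT18 (93.1 CPM) and PDGFRB (69.6 CPM). In TF-1 KRT18 (169 CPM) and KRT8 (43.0 CPM) led the stromal and epithelial sum. The lymphoid sum ran from 15.5 to 22.9 CPM against 14.2 to 17.1 CPM in TF-1, 4.61 to 6.11 against 4.14 to 4.51 CPM in UT-7 and 90.5 to 91.9 against 73.2 to 81.0 CPM in UCSD-AML1 (cyclocreatine against vehicle), and the part of this in the receptor results was not tested.

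Under vehicle, the lines shared several receptors, CSF2RB and KIT among them, and differed in receptor levels. TF-1 and UT-7 carried the common beta chain CSF2RB, KIT and EPOR as their leading transcripts, with UT-7 the highest of the 3 lines for all of these. UCSD-AML1 carried CSF1R, IL6ST, IL3RA and CSF3R at the highest levels of the 3 lines and EPOR at the lowest. Expressed per kilobase of exon (GENCODE v29 lengths, so that genes can be set side by side), UT-7 had 167 CPM per kb of KIT, 117 of CSF2RB and 80.7 of EPOR. TF-1 had 60.7 CPM per kb of CSF2RB, 25.3 of KIT, 12.3 of EPOR and 10.4 of IL6ST. UCSD-AML1 led with 80.2 CPM per kb of CSF1R, followed by 34.2 of KIT, 26.3 of CSF2RB, 24.6 of IL6ST, 17.99 of IL3RA and 14.8 of CSF3R. The alpha chain CSF2RA stayed between 2.72 and 6.49 CPM per kb in the 3 lines, well under its partner CSF2RB.

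**Figure D1:**
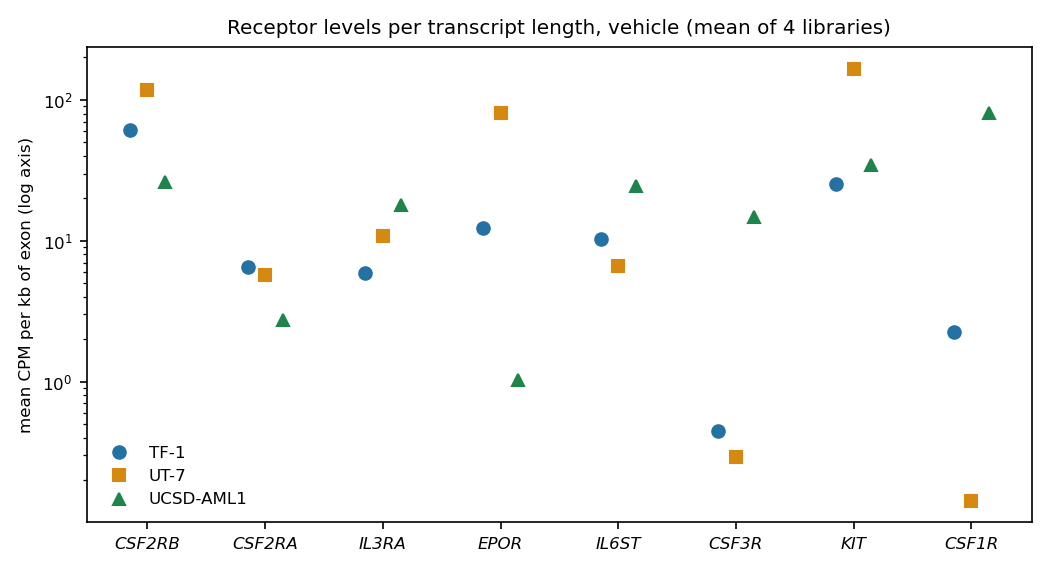
Mean CPM per kilobase of exon under vehicle (log axis, 4 libraries per line) for the 8 receptors with counts in every line; FLT3, at 0 in all vehicle libraries, cannot be drawn. KIT and EPOR are highest in UT-7 (167 and 80.7 CPM per kb) and CSF1R in UCSD-AML1 (80.2 CPM per kb).

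All 8 tested receptors passed the test in each pair of lines, against 79.7% of all genes tested for TF-1 against UT-7, 84% for TF-1 against UCSD-AML1 and 81.5% for UT-7 against UCSD-AML1, so the number that differed was close to that of genes at large. In TF-1, 4 receptors were higher and 4 lower than in UT-7 (41% and 38.7% of all genes), and 3 were higher and 5 lower than in UCSD-AML1 (40.6% and 43.3%). In UT-7, 4 were higher and 4 lower than in UCSD-AML1 (40% and 41.5%). Calls here and below are edgeR quasi-likelihood tests with Benjamini-Hochberg adjusted p under 0.05 over the 14588 genes, and log2 fold changes are given with their standard error. The libraries of the compared lines did not overlap for 7 of the 8 receptors between TF-1 and UT-7 (75.2% of all genes), and for 8 of 8 in both comparisons with UCSD-AML1 (79.7% and 80% of all genes). CSF1R covered the widest range: it averaged 9.05 ± 0.80 CPM in TF-1, 0.568 ± 0.215 CPM in UT-7 and 320.1 ± 6.6 CPM in UCSD-AML1 (SD, n = 4 each). That is a log2 difference of -9.11 ± 0.09 for UT-7 against UCSD-AML1 (adjusted p = 6.80e-45) and of 3.96 ± 0.15 for TF-1 against UT-7 (adjusted p = 8.45e-25). EPOR averaged 30.9 ± 0.39 CPM in TF-1, 202 ± 2.4 CPM in UT-7 and 2.57 ± 0.46 CPM in UCSD-AML1, 78.5-fold higher in UT-7 than in UCSD-AML1 (adjusted p = 4.82e-42). CSF3R averaged 1.55 ± 0.18 CPM in TF-1 and 1.01 ± 0.18 CPM in UT-7, against 51.1 ± 1.2 CPM in UCSD-AML1, and was 32.9-fold lower in TF-1 and 50.6-fold lower in UT-7 than in UCSD-AML1 (adjusted p = 1.94e-34 and 1.02e-34).

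KIT stood 6.58-fold lower in TF-1 than in UT-7 and 4.87-fold higher in UT-7 than in UCSD-AML1 (adjusted p = 1.27e-36 and 4.52e-35). CSF2RB was 1.93-fold lower in TF-1 than in UT-7 and 2.31-fold higher in TF-1 than in UCSD-AML1. The alpha chain of the IL-3 receptor, IL3RA, was also lower in TF-1 than in UT-7 but, unlike CSF2RB, was highest in UCSD-AML1, at 10.2 ± 1.0 CPM in TF-1, 18.4 ± 0.16 CPM in UT-7 and 30.8 ± 2.2 CPM in UCSD-AML1. Among all these line differences the least secure were CSF2RA and CSF3R between TF-1 and UT-7. CSF2RA had 18.8 ± 1.9 CPM in TF-1 and 16.4 ± 0.76 CPM in UT-7 (log2 0.19 ± 0.09, adjusted p = 0.0405), with overlapping libraries, and the call was lost with library totals alone (adjusted p = 0.212) and without any 1 of 6 of the 8 libraries (highest adjusted p = 0.180). The call for CSF3R (adjusted p = 0.0105) was lost without UT-7 vehicle replicate 3 (adjusted p = 0.0615). CSF2RA and IL3RA lie in the pseudoautosomal region shared by X and Y; their 250 bases before the start were identical between the copies over all 250 bases, the sources used here do not say how the counting treated the copies, and the absolute levels of both genes are uncertain. Of 15 genes of that region, 12 passed the filter on low counts, and SLC25A6 averaged 1462 CPM in TF-1 under vehicle.

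Cyclocreatine lowered the common beta chain and EPOR and raised CSF3R in all 3 lines. Calls for the other receptors varied by line. CSF1R and IL3RA fell in TF-1, CSF2RA fell in TF-1 and UT-7, KIT rose in TF-1 and fell in UT-7, and IL6ST rose in UT-7. Whether the responses themselves differed between lines was tested separately and is given below. In TF-1, 2 of the 8 receptors rose (26.7% of all genes tested did) and 5 fell (29.3%), against 56% of all genes in either direction. In UT-7, 2 rose (22.5%) and 4 fell (23.3%), against 45.9% in either direction. In UCSD-AML1, 1 rose (19.1%) and 2 fell (21.3%), against 40.5% in either direction. The share of receptors called in UCSD-AML1, 37.5%, was near that background. Over all genes TF-1 had 3901 higher and 4272 lower calls, a split that became 3001 higher and 5225 lower with library totals alone in place of TMM scaling. The median log2 fold change of the 8 receptors was -0.37 in TF-1 (all genes -0.01), -0.25 in UT-7 (all genes 0) and -0.06 in UCSD-AML1 (all genes -0.0046). Treated and vehicle libraries of TF-1 did not overlap for 5 receptors (40.2% of all genes), those of UT-7 for 7 (47.4%) and those of UCSD-AML1 for 3 (44.2%). With bulk RNA, fewer cells carrying a receptor and less of its RNA per cell cannot be told apart.

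**Figure D2:**
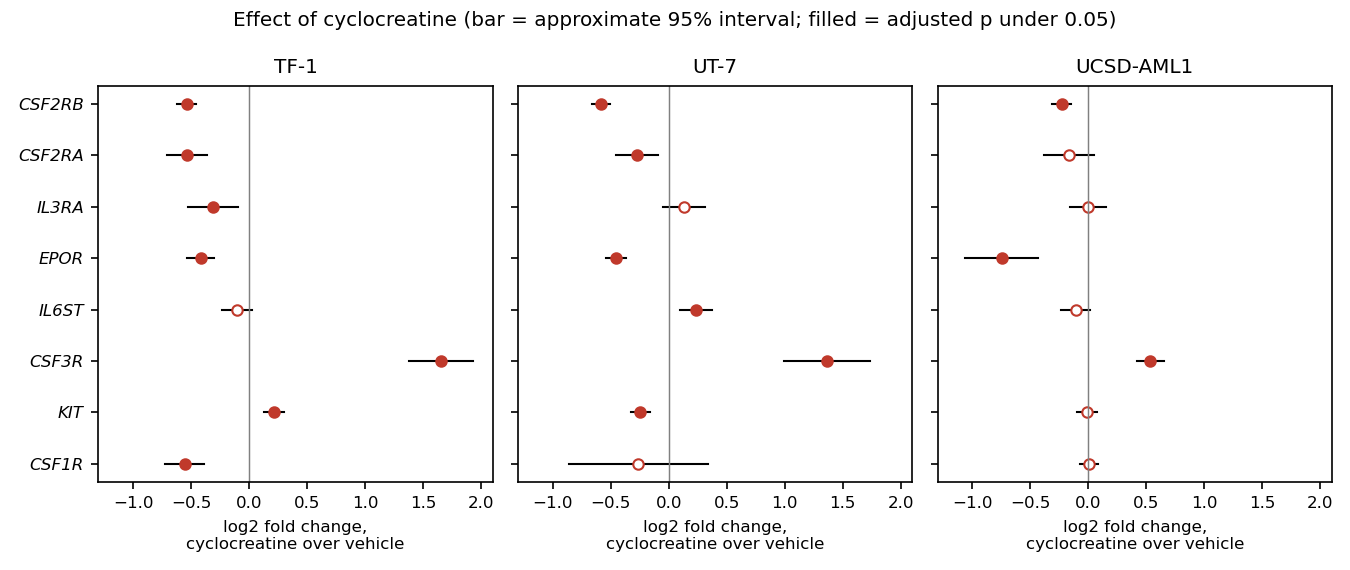
Log2 fold change of cyclocreatine over vehicle for the 8 tested receptors in each line; points are estimates, bars are approximate 95% intervals, and filled points had an adjusted p under 0.05. CSF2RB and EPOR lie left of 0 and CSF3R right of 0 in all 3 panels.

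CSF2RB, the signalling chain of the GM-CSF, IL-3 and IL-5 receptors, had 180.3, 218, 209.7 and 208 CPM in the cyclocreatine libraries of TF-1, against 292, 291, 313 and 289.6 CPM in its vehicle libraries. UT-7 had 381, 381, 379.9 and 382 CPM with cyclocreatine, against 569, 574, 576 and 567 CPM with vehicle. UCSD-AML1 had 107, 107, 110.3 and 114 CPM with cyclocreatine, against 130.5, 133, 126 and 124 CPM with vehicle. Every treated library lay under every vehicle library of its line, with the gap narrowest in UCSD-AML1. The fold changes were -0.54 ± 0.04 in TF-1 (log2, adjusted p = 2.30e-14), -0.59 ± 0.04 in UT-7 (adjusted p = 1.97e-15) and -0.23 ± 0.04 in UCSD-AML1 (adjusted p = 2.72e-05). Without TF-1 cyclocreatine replicate 1, the lowest library of its group, the TF-1 value was -0.49 (adjusted p = 1.09e-21). Sorted by mean, the 6 groups ran UT-7 vehicle, UT-7 cyclocreatine, TF-1 vehicle, TF-1 cyclocreatine, UCSD-AML1 vehicle and UCSD-AML1 cyclocreatine, and none of the 5 neighbouring pairs overlapped. Being called lower in all 3 lines, as CSF2RB and EPOR were, was shared by 8.97% of all genes tested.

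CSF2RA, the GM-CSF receptor alpha chain, had 12.4, 12.6, 13.9 and 12.8 CPM in cyclocreatine-treated TF-1, against 16.4, 18.8, 18.8 and 21.1 CPM with vehicle. In UT-7 the values were 13.8, 13.4, 13.8 and 13.4 CPM with cyclocreatine, against 17.5, 15.9, 16.1 and 16.0 CPM with vehicle. The treated libraries lay under the vehicle libraries in both lines, and the fold changes were -0.54 ± 0.09 in TF-1 (adjusted p = 2.47e-06; -0.52 without cyclocreatine replicate 1) and -0.27 ± 0.09 in UT-7 (adjusted p = 0.0147). The UT-7 call was lost without vehicle replicate 1, the highest of its group (-0.24, adjusted p = 0.0531). In UCSD-AML1 the groups overlapped, at 7.03 ± 0.76 CPM with cyclocreatine and 7.85 ± 1.04 CPM with vehicle (SD, n = 4 each), and the difference of -0.17 ± 0.11 did not pass (adjusted p = 0.243).

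IL3RA, the IL-3 receptor alpha chain, had 7.22, 7.06, 7.35 and 10.5 CPM in cyclocreatine-treated TF-1, against 9.46, 11.6, 9.35 and 10.2 CPM with vehicle. Of the treated libraries, 3 lay under all vehicle libraries and replicate 4 lay among them, and the fold change was -0.31 ± 0.11 (adjusted p = 0.0141). That call was lost without vehicle replicate 2 (adjusted p = 0.0721), without cyclocreatine replicate 2 (adjusted p = 0.0583) and with TF-1 fitted alone (adjusted p = 0.0902), and it was -0.25 without cyclocreatine replicate 1 (adjusted p = 0.0482). Without the high cyclocreatine replicate 4 the fold change was -0.49 (adjusted p = 0.000154). UT-7 had 19.8 to 20.5 CPM with cyclocreatine and 18.2 to 18.5 CPM with vehicle, groups that did not overlap, but the difference of 0.13 ± 0.09 did not pass (adjusted p = 0.258). UCSD-AML1 averaged 30.7 CPM with cyclocreatine and 30.8 CPM with vehicle, with an approximate 95% interval of the log2 fold change from -0.16 to 0.15.

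**Figure D3:**
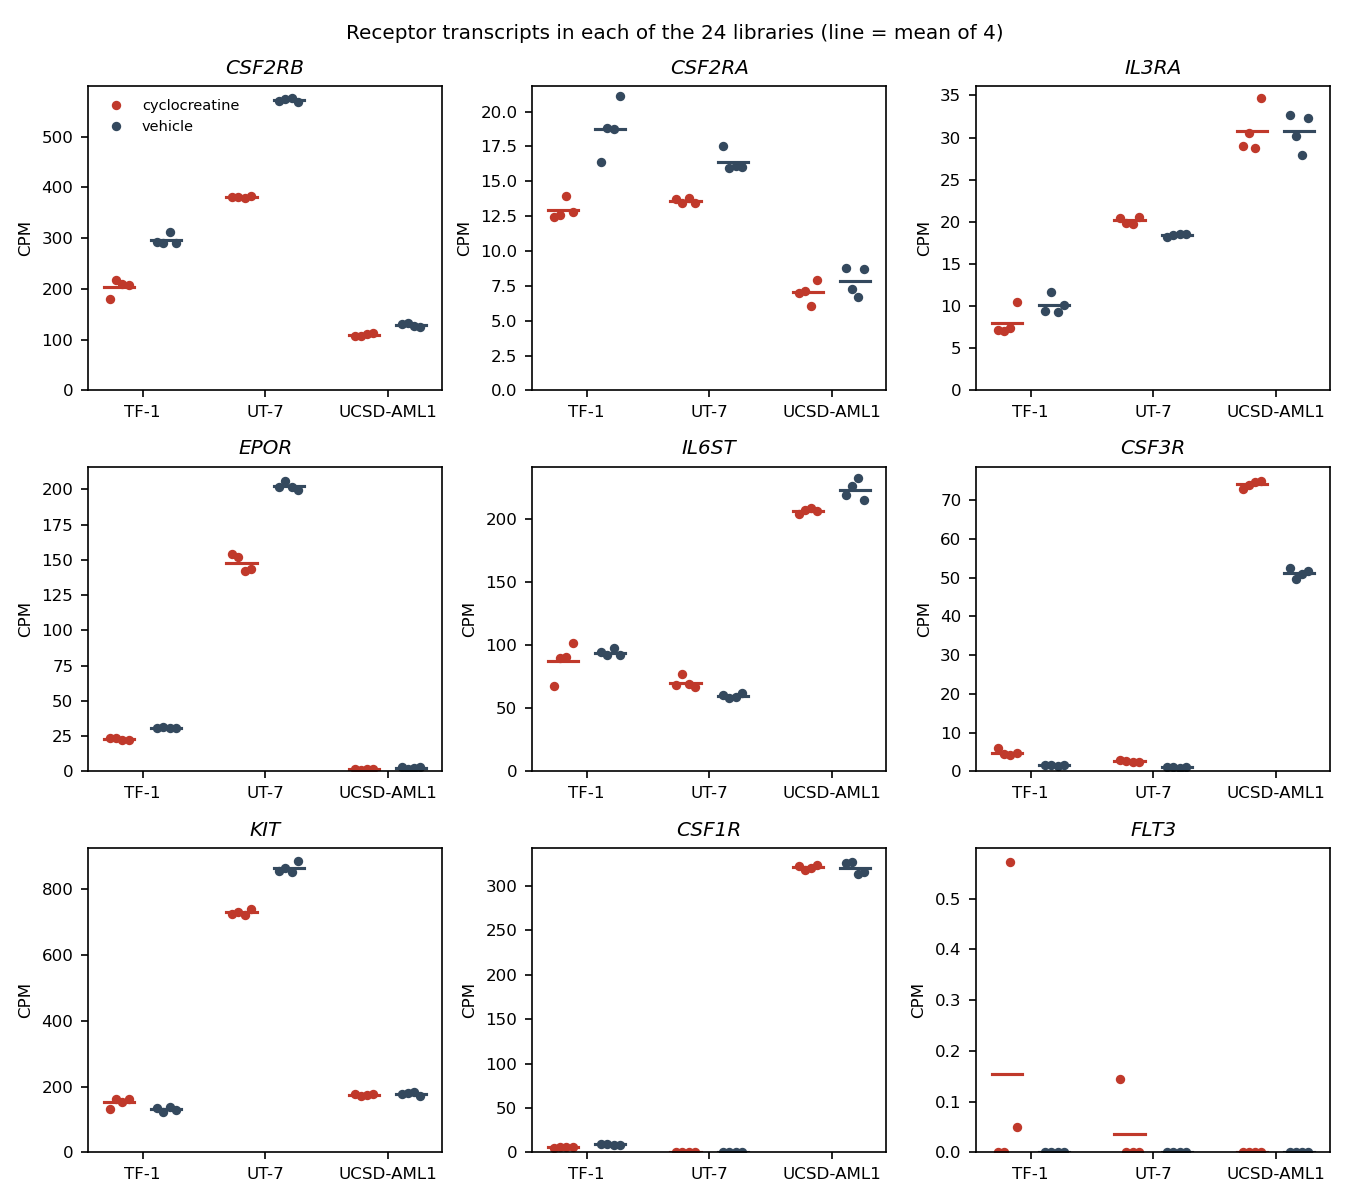
CPM of each receptor in every library, with cyclocreatine libraries in red and vehicle libraries in dark blue, 4 points per group and a line at the group mean; each panel has its own linear axis starting at 0. CSF2RB sits at 379.9 to 382 CPM in cyclocreatine-treated UT-7, under all of its vehicle libraries, and FLT3 is above 0 in 3 libraries.

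Ratios of beta chain to alpha chain counts showed the widest gap between treatments in UT-7. There, the ratio of CSF2RB to IL3RA counts within a library, which no scaling of libraries can alter, averaged 18.9 with cyclocreatine and 31.0 with vehicle (geometric means, n = 4 each), and its log2 ran from 4.22 to 4.27 with cyclocreatine and from 4.94 to 4.97 with vehicle. The ratio of CSF2RB to CSF2RA counts in UT-7 averaged 28.0 with cyclocreatine and 34.9 with vehicle, again without overlap. In TF-1 both ratios overlapped between treatments, with CSF2RB to CSF2RA at 15.7 with cyclocreatine and 15.9 with vehicle. UCSD-AML1 had the lowest ratio of CSF2RB to IL3RA, 3.57 with cyclocreatine and 4.18 with vehicle, and the highest treated library nearly touched the lowest vehicle library (log2 1.940 and 1.942). These ratios are a description and were not tested.

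**Figure D4:**
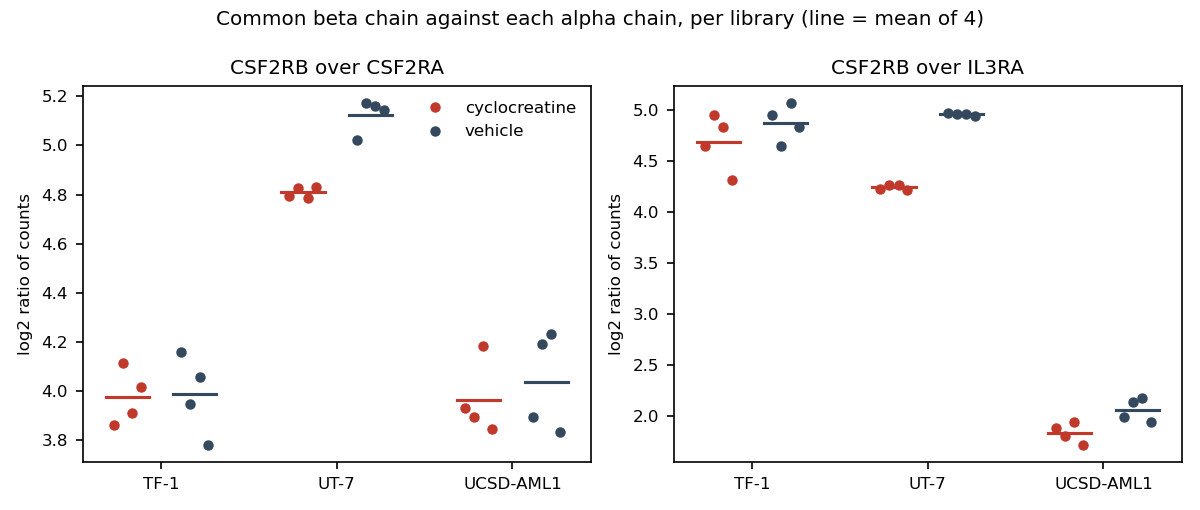
Log2 ratio of CSF2RB counts to those of CSF2RA (left) and IL3RA (right) in each library, with cyclocreatine in red, vehicle in dark blue and a line at the mean of 4 libraries; the axes do not start at 0. The treated and vehicle libraries of UT-7 are apart in both panels, from 4.22 to 4.27 against 4.94 to 4.97 for IL3RA.

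EPOR, the erythropoietin receptor, had 23.7, 23.8, 22.3 and 22.6 CPM in cyclocreatine-treated TF-1, against 30.9, 31.4, 30.9 and 30.4 CPM with vehicle. UT-7 had 154, 152, 142 and 144 CPM with cyclocreatine, against 202, 206, 202 and 199.8 CPM with vehicle. UCSD-AML1 had 1.97, 1.18, 1.42 and 1.53 CPM with cyclocreatine (19 to 31 counts), against 2.79, 1.88, 2.76 and 2.86 CPM with vehicle (30 to 49 counts). The groups were apart in TF-1 and UT-7, whereas in UCSD-AML1 vehicle replicate 2 lay under treated replicate 1. EPOR fell by 0.42 ± 0.06 on the log2 scale in TF-1 (adjusted p = 1.08e-07), and the log2 change was -0.43 without cyclocreatine replicate 1. It fell by 0.45 ± 0.04 in UT-7 (adjusted p = 6.64e-11) and fell by 0.75 ± 0.16 in UCSD-AML1 (adjusted p = 0.000244). Differences between the 3 falls did not pass the test: the log2 difference was 0.03 (approximate 95% interval -0.11 to 0.18) for TF-1 against UT-7, 0.33 (-0.0028 to 0.66) for TF-1 against UCSD-AML1 and 0.30 (-0.03 to 0.62) for UT-7 against UCSD-AML1.

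CSF3R, the G-CSF receptor, was the only receptor called higher in all 3 lines, a pattern shared by 8.76% of all genes tested. TF-1 had 6.01, 4.54, 4.14 and 4.79 CPM with cyclocreatine (58 to 96 counts), against 1.53, 1.75, 1.31 and 1.62 CPM with vehicle (22 to 27 counts). UT-7 had 2.88, 2.70, 2.38 and 2.42 CPM with cyclocreatine (33 to 40 counts), against 1.06, 1.03, 0.761 and 1.19 CPM with vehicle (12 to 16 counts). UCSD-AML1, where the gene was well expressed, had 72.9, 74.0, 74.5 and 74.8 CPM with cyclocreatine, against 52.3, 49.5, 51.0 and 51.7 CPM with vehicle. All treated libraries stood above all vehicle libraries of their line. The log2 rises were 1.66 ± 0.14 in TF-1 (3.15-fold, adjusted p = 1.27e-12), 1.36 ± 0.19 in UT-7 (2.57-fold, adjusted p = 1.59e-07) and 0.53 ± 0.06 in UCSD-AML1 (1.45-fold, adjusted p = 1.68e-09). Replicate 1 was the highest treated TF-1 library, and without it the rise was 1.54 (adjusted p = 3.40e-13). The treated TF-1 and UT-7 levels remained under those of UCSD-AML1, and none of the 5 neighbouring pairs of groups overlapped.

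IL6ST, the gp130 chain shared by the IL-6 family, rose in UT-7, where it had 68.3, 77.0, 69.2 and 67.0 CPM with cyclocreatine, against 60.7, 57.7, 58.6 and 62.3 CPM with vehicle. Treated libraries lay above vehicle libraries and the fold change was 0.23 ± 0.07 (adjusted p = 0.00833). TF-1 had 67.8, 89.6, 90.9 and 101 CPM with cyclocreatine, against 94.3, 92.3, 97.8 and 91.9 CPM with vehicle. The treated libraries spread on both sides of the vehicle libraries, and the change of -0.10 ± 0.07 did not pass (adjusted p = 0.197). It was 0.0039 without the low replicate 1 (adjusted p = 0.959) and -0.19 without the high replicate 4 (adjusted p = 0.0100), and -0.18 with library totals alone (adjusted p = 0.0383). In UCSD-AML1 the range was 204 to 209 CPM with cyclocreatine and 215 to 232 CPM with vehicle; the groups were apart, the change of -0.11 ± 0.06 did not pass (adjusted p = 0.164), and it did pass when this line was fitted alone (-0.10, adjusted p = 0.00172).

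KIT, the stem cell factor receptor, moved in opposite directions in TF-1 and UT-7. TF-1 had 133, 162, 152 and 164 CPM with cyclocreatine, against 135, 124, 138 and 128 CPM with vehicle. UT-7 had 725, 731, 722 and 740.3 CPM with cyclocreatine, against 854, 866, 851 and 887 CPM with vehicle. In TF-1 the treated libraries were above the vehicle libraries except replicate 1, which lay among them, and in UT-7 all treated libraries were under all vehicle libraries. The fold change was 0.22 ± 0.04 in TF-1 (adjusted p = 6.24e-05), 0.28 without replicate 1 (adjusted p = 1.44e-10), and -0.24 ± 0.04 in UT-7 (adjusted p = 3.79e-06). UCSD-AML1 averaged 176 ± 2.2 CPM with cyclocreatine and 177 ± 5.5 CPM with vehicle (SD, n = 4 each), with an approximate 95% interval of the log2 fold change from -0.10 to 0.07.

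CSF1R, the receptor for CSF1 and IL-34, had 5.51, 6.43, 6.50 and 6.14 CPM in cyclocreatine-treated TF-1, against 9.65, 9.81, 8.52 and 8.21 CPM with vehicle. The groups did not overlap, and the gene fell by 0.56 ± 0.08 on the log2 scale (adjusted p = 6.22e-07), with a log2 change of -0.51 without cyclocreatine replicate 1. In UCSD-AML1, the line with abundant CSF1R, the range was 318 to 323 CPM with cyclocreatine and 313 to 326 CPM with vehicle, with an approximate 95% interval of the log2 fold change from -0.07 to 0.08. UT-7 had 5 to 9 counts per library with cyclocreatine and 5 to 12 with vehicle; CSF1R passed the filter through the other lines, and a change in UT-7 was not detectable at this depth (approximate 95% interval -0.86 to 0.33). FLT3 had 0 counts in 21 of 24 libraries. The exceptions were TF-1 cyclocreatine replicate 3 with 8 counts, TF-1 cyclocreatine replicate 4 with 1 count and UT-7 cyclocreatine replicate 1 with 2 counts, against 0 in all vehicle libraries. A count of 0 allows up to 3 counts in a library, or 0.150 to 0.231 CPM, which covers counting error only. Without the filter on low counts FLT3 was called higher in TF-1 (adjusted p = 0.0316) on the 9 counts of 2 libraries.

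The differences between lines in the response were tested directly. TF-1 against UT-7 gave 1 receptor with a higher and 2 with a lower response (14.3% and 13.2% of all genes, 27.5% together). For TF-1 against UCSD-AML1 there were 2 and 3 (14.8% and 14.3%, 29.1% together), and for UT-7 against UCSD-AML1 there were 2 and 2 (11.5% each, 23% together). Over all genes the calls split into 2089 higher and 1922 lower for TF-1 against UT-7 (1637 and 2312 with library totals alone) and into 2156 higher and 2086 lower for TF-1 against UCSD-AML1 (1329 and 2766 with library totals alone). KIT differed in all 3 pairs, by 0.46 ± 0.06 for TF-1 against UT-7 (adjusted p = 2.18e-07), by 0.23 ± 0.06 for TF-1 against UCSD-AML1 (adjusted p = 0.00430) and by -0.23 ± 0.06 for UT-7 against UCSD-AML1 (adjusted p = 0.00307); the TF-1 and UCSD-AML1 pair was lost with library totals alone (0.16, adjusted p = 0.0718). Set against UCSD-AML1, the fall of CSF2RB was larger in both other lines, with differences of -0.31 ± 0.06 for TF-1 and -0.36 ± 0.06 for UT-7 (adjusted p = 7.42e-05 and 9.22e-06). Likewise the rise of CSF3R was larger, with differences of 1.12 ± 0.16 for TF-1 and 0.83 ± 0.20 for UT-7 (adjusted p = 5.76e-07 and 0.00188). Between TF-1 and UT-7 neither gene's response passed, with approximate 95% intervals of -0.06 to 0.16 for CSF2RB and -0.20 to 0.79 for CSF3R.

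CSF1R changed differently in TF-1 and UCSD-AML1, by -0.56 ± 0.09 (adjusted p = 1.36e-05). The CSF1R response did not pass for TF-1 against UT-7 (adjusted p = 0.630) or for UT-7 against UCSD-AML1 (adjusted p = 0.700), with low counts in UT-7. IL6ST changed differently in TF-1 and UT-7, by -0.34 ± 0.10 (adjusted p = 0.0105), and in UT-7 and UCSD-AML1, by 0.34 ± 0.10 (adjusted p = 0.00764). For IL3RA the difference was -0.44 ± 0.14 between TF-1 and UT-7 (adjusted p = 0.0174), lost without TF-1 vehicle replicate 2 (adjusted p = 0.0535). IL3RA did not pass between TF-1 and UCSD-AML1 (-0.31, adjusted p = 0.0847) but did with library totals alone (adjusted p = 0.0341) and without TF-1 cyclocreatine replicate 4 (-0.49, adjusted p = 0.00310). CSF2RA differed between TF-1 and UCSD-AML1 by -0.37 ± 0.14 (adjusted p = 0.0429), a call lost without any 1 of 11 of the 16 libraries (highest adjusted p = 0.118), TF-1 cyclocreatine replicate 1 among them (adjusted p = 0.0557). Without that library no other receptor's response difference of TF-1 against UT-7 or UCSD-AML1 changed its call. The CSF2RA call was also lost with no filter on low counts (adjusted p = 0.0732), with limma-voom (adjusted p = 0.0509) and with only the compared lines fitted (adjusted p = 0.0945). The CSF2RA response did not pass for TF-1 against UT-7 (adjusted p = 0.120) or for UT-7 against UCSD-AML1 (adjusted p = 0.689).

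Of the 18 listed ligands of these receptors, 5 passed the filter on low counts. In TF-1 0 rose and 4 fell, and in UT-7 0 rose and 3 fell, where 29.3% and 23.3% of all genes fell. In UCSD-AML1 0 rose and 0 fell (21.3% of all genes fell), but LIF with 3 to 4 counts per group, CSF1 with 16 to 21 and CTF1 with 17 to 18 passed the filter through the other lines, and a change of these was not detectable there at this depth. FLT3LG, the ligand of FLT3, averaged 2.44 CPM with cyclocreatine and 3.71 CPM with vehicle in TF-1 (log2 -0.58 ± 0.18, adjusted p = 0.00725), 4.78 and 5.91 CPM in UT-7 (adjusted p = 0.120), and 4.32 and 3.29 CPM in UCSD-AML1 (adjusted p = 0.0694). Its response differed from that of UCSD-AML1 by -0.98 ± 0.25 in TF-1 and by -0.70 ± 0.24 in UT-7 (adjusted p = 0.00325 and 0.0280). OSM, oncostatin M, an IL-6 family ligand that signals through IL6ST, averaged 4.38 CPM with cyclocreatine and 11.7 CPM with vehicle in TF-1 (log2 -1.43 ± 0.11, adjusted p = 1.37e-13), and 40.6 and 69.7 CPM in UT-7 (-0.78 ± 0.07, adjusted p = 8.75e-12). LIF, another ligand of that family, averaged 18.3 CPM with cyclocreatine and 29.8 CPM with vehicle in TF-1 (-0.70 ± 0.07) and 196 and 320.5 CPM in UT-7 (-0.71 ± 0.05). CSF1, the ligand of CSF1R, fell by 0.97 ± 0.10 on the log2 scale in TF-1 and by 0.44 ± 0.08 in UT-7. These 3 ligands stood at 1.33, 0.0650 and 0.257 CPM in cyclocreatine-treated UCSD-AML1 and at 1.37, 0.0501 and 0.338 CPM in its vehicle libraries, the line with the most CSF1R. Several other ligands were scarce in these cells: CSF2 (GM-CSF) averaged at most 0.881 CPM, IL3 at most 0.547 CPM, KITLG at most 0.276 CPM, CSF3 at most 0.145 CPM and EPO at most 0.130 CPM in any group.

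Partner chains of other blood cytokine receptors gave 6 higher and 9 lower of 23 tested in TF-1, 6 and 7 in UT-7, and 4 and 7 in UCSD-AML1 (28 listed); the called shares of 65.2%, 56.5% and 47.8% stand beside 56%, 45.9% and 40.5% of all genes. IL6R, the alpha chain that pairs with IL6ST, averaged 63.1 CPM with cyclocreatine and 24.1 CPM with vehicle in UT-7 (log2 1.39 ± 0.06, adjusted p = 1.97e-20). The IL6R response was also higher in TF-1 than in UCSD-AML1 (difference 0.52 ± 0.08). LIFR, the partner of IL6ST for LIF, averaged 176 CPM with cyclocreatine and 341 CPM with vehicle in UCSD-AML1 (-0.95 ± 0.05, adjusted p = 1.36e-16). IL27RA, which pairs with IL6ST for IL-27, rose by 0.50 ± 0.05 in TF-1 and by 0.37 ± 0.05 in UCSD-AML1. The IL27RA response of TF-1 against UT-7 differed by 0.32 ± 0.07, less than the TF-1 rise. IL21R fell by 2.54 ± 0.28 on the log2 scale in TF-1, to 0.533 CPM with cyclocreatine, against 3.02 CPM with vehicle, and by 1.18 ± 0.17 in UT-7. IFNAR2 fell in TF-1 (-0.50 ± 0.05), IL2RG, the common gamma chain, rose in UT-7 (0.45 ± 0.05), and IL10RA fell in UCSD-AML1 (-0.41 ± 0.07).

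Of the 11 Janus kinases and STATs, 2 rose and 3 fell in TF-1, 5 rose and 1 fell in UT-7, and 3 rose and 2 fell in UCSD-AML1, called shares of 45.5%, 54.5% and 45.5% that were near the 56%, 45.9% and 40.5% of all genes. JAK2, the kinase bound by CSF2RB and EPOR, averaged 39.8 CPM with cyclocreatine and 50.4 CPM with vehicle in TF-1 (log2 -0.34 ± 0.04, adjusted p = 1.72e-08). It averaged 355 and 386 CPM in UT-7 (adjusted p = 0.00521) and 32.6 and 33.0 CPM in UCSD-AML1 (adjusted p = 0.815). JAK1 rose in TF-1 (0.22 ± 0.04) and UT-7 (0.36 ± 0.04). STAT3 rose in TF-1 (0.13 ± 0.04) and fell in UCSD-AML1 (-0.16 ± 0.04), where STAT6 rose (0.19 ± 0.04). STAT2 rose in UT-7 (0.49 ± 0.06).

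Adapters and proximal kinases (22 listed, all tested) gave 8 higher and 11 lower in TF-1, 8 and 9 in UT-7, and 4 and 8 in UCSD-AML1, or 86.4%, 77.3% and 54.5% called, beside 56%, 45.9% and 40.5% of all genes. SHC1, an adapter of tyrosine-phosphorylated receptors, fell in TF-1 (-0.61 ± 0.04) and UCSD-AML1 (-0.62 ± 0.03). Its response differed by -0.49 ± 0.05 for TF-1 against UT-7, less than the TF-1 fall, so the UT-7 estimate was a smaller fall. DOK2, a docking protein that restrains RAS signalling, fell in TF-1 (-0.99 ± 0.07) and UT-7 (-1.13 ± 0.07), as did GAB3 (-0.50 ± 0.04 and -0.63 ± 0.06). The DOK2 responses differed from that of UCSD-AML1 by -0.80 ± 0.08 in TF-1 and -0.94 ± 0.09 in UT-7, less than these falls. GAB2 rose (0.83 ± 0.08) and PIK3CB fell (-0.43 ± 0.04) in UCSD-AML1, and YWHAZ rose in UT-7 (0.34 ± 0.03). Negative regulators (26 listed, all tested) gave 5 higher and 11 lower in TF-1, 10 and 8 in UT-7, and 4 and 8 in UCSD-AML1, or 61.5%, 69.2% and 46.2% called, against the same 56%, 45.9% and 40.5%. CISH, a STAT5-induced inhibitor of cytokine receptors, fell in all 3 lines, with 59.7 CPM with cyclocreatine and 84.2 CPM with vehicle in TF-1, 17.2 and 29.03 CPM in UT-7, and 34.4 and 47.9 CPM in UCSD-AML1 (adjusted p = 2.64e-10, 8.51e-12 and 1.18e-08). PTPN1, a tyrosine phosphatase, fell (-0.67 ± 0.04) and SLA, an adapter that lowers receptor levels, rose (1.30 ± 0.07) in TF-1. Against UCSD-AML1, the PTPN1 response was lower in TF-1 (-0.69 ± 0.05) and also in UT-7 (-0.39 ± 0.05). SOCS3 (-1.16 ± 0.07) and the phosphatase PTPN6 (-0.52 ± 0.04) fell in UT-7. The SOCS3 response differed by 0.78 ± 0.10 for TF-1 against UT-7, less than the UT-7 fall. For UT-7 against UCSD-AML1 it differed by -1.51 ± 0.11, more than that fall, so UCSD-AML1 did not share it. DUSP6 (-0.74 ± 0.07) and SPRED1 (-0.56 ± 0.06), brakes on ERK signalling, fell in UCSD-AML1.

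Transcription factors known to act on receptor genes (23 listed, all tested) gave 9 higher and 8 lower in TF-1, 5 and 9 in UT-7, and 9 and 6 in UCSD-AML1; the called shares were 73.9%, 60.9% and 65.2%, beside 56%, 45.9% and 40.5% of all genes. Under vehicle their levels differed by line: GATA1, the erythroid factor, averaged 151 CPM in TF-1, 267 CPM in UT-7 and 21.0 CPM in UCSD-AML1, and KLF1 208, 209 and 0.142 CPM. CEBPA, the granulocytic factor, averaged 36.3 CPM in TF-1, 0.189 CPM in UT-7 and 119 CPM in UCSD-AML1, whereas SPI1, which encodes PU.1, varied less, at 94.4, 136 and 144 CPM. With cyclocreatine CEBPA rose in TF-1 (0.81 ± 0.06) and did not pass in UT-7 (adjusted p = 0.481) or UCSD-AML1 (adjusted p = 0.774). GFI1, a transcriptional repressor needed for neutrophil formation, rose in TF-1 (1.25 ± 0.08) and UT-7 (0.99 ± 0.06). RUNX1 fell in all 3 lines (-0.49 ± 0.04 for TF-1, -0.52 ± 0.04 for UT-7 and -0.51 ± 0.03 for UCSD-AML1). ERG rose in TF-1 (0.95 ± 0.05), and its response was also higher in UT-7 than in UCSD-AML1 (difference 0.59 ± 0.07). GFI1B fell in UT-7 (-0.88 ± 0.04) and UCSD-AML1 (-0.32 ± 0.04). The GFI1B response of TF-1 against UT-7 differed by 0.50 ± 0.06, less than the UT-7 fall. FLI1 fell in UCSD-AML1 (-0.38 ± 0.03). GATA1 fell in UT-7 (-0.13 ± 0.04, adjusted p = 0.0123) and in UCSD-AML1 (-0.34 ± 0.07, adjusted p = 6.44e-05), and did not pass in TF-1 (0.01, adjusted p = 0.815). Among 14 tested JAK-STAT target genes, 1 rose and 9 fell in TF-1, 1 and 10 in UT-7, and 2 and 7 in UCSD-AML1. Of all genes 26.7%, 22.5% and 19.1% rose and 29.3%, 23.3% and 21.3% fell in the 3 lines. PIM2, a survival kinase, averaged 94.5 CPM with cyclocreatine and 189 CPM with vehicle in TF-1, 87.2 and 182 CPM in UT-7 and 35.5 and 89.9 CPM in UCSD-AML1.

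The genes most like each receptor across the 24 libraries were found by Pearson's r of log2 CPM after removing each line's mean, over 10711 genes with at least 5 CPM in a group. These libraries share the treatment split and the scaling, so r is a description. CSF2RB was most like NUP188 (r = 0.98), SNAP23 and FAM212B, and CSF3R was most like EEF1A1 (r = 0.98), EIF3L and ZNF467. EPOR was most like STEAP3 (r = 0.93), PDE4A and CYCS, IL6ST like ATP11B (r = 0.90), ELMO2 and TET2, and CSF2RA like C15orf57 (r = 0.90), CBS and EFNA3. KIT (NLN, r = 0.86), CSF1R (LOXL1-AS1, r = 0.85) and IL3RA (LRRC16A, r = 0.84) had weaker nearest genes. Between receptors, CSF2RB and CSF3R gave r = -0.97, and CSF2RB and CSF2RA gave r = 0.80.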

How the data were processed

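RNA of 24 libraries was sequenced on an Illumina HiSeq, per the labels, and each deposited file gives the unnormalized count of every RefSeq symbol in 1 library. FastQC, TopHat2, RSEM, GRCh37 and hg19 are named in the submitters' processing notes, with no versions or roles. No source used here gives strand use or batches, so overlapping, antisense and near-identical genes are uncertain. Groups came from the labels.

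Counts were fitted with edgeR 4.0.16 in R 4.3.3 as 6 group means (18 residual degrees of freedom). Genes were kept by filterByExpr (smallest count 10, smallest total 15), which left 14588 genes with at least 99.93% of each library's counts, and libraries were scaled by TMM. CPM were taken over the scaled totals, with a prior count of 2 on the log2 scale. Tests were two-sided quasi-likelihood tests of 9 contrasts, adjusted by Benjamini-Hochberg over all genes within a contrast. Standard errors were derived from the log2 fold change and its F statistic, and intervals span 1.96 of them, so both are approximate. Depth was 12794998 to 21200662 counts per library. The code was tested on simulated data. Alternatives used DESeq2 1.42.0, limma 3.58.1, other scalings, no filter, fewer lines, a replicate block and each library left out.

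The receptors and the gene lists were chosen with earlier results of these data known. All 9 receptors are named in every comparison. From each list up to 3 called genes per comparison were named, those with the smallest p and at least 1 CPM in a group. Not all genes named by this rule are reported here. A line left unnamed for a list gene may share its change or oppose it. The genes of the pseudoautosomal and marker lists are given as levels only. Ligands, transcription factors, JAK2 and markers named with levels alone, or with a p beyond that rule, were chosen after their values were seen. Like genes are the 3 non-receptors with the highest r for each receptor, both with a mean of at least 5 CPM over the 24 libraries.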

Additional observations from a re-analysis of the deposited data

Results flagged for a closer look

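Of 48 groups of 4 libraries checked, 5 held a library far from the other 3, where chance flags about 1 in 20 groups. CSF2RA stood at 17.5 CPM in UT-7 vehicle replicate 1, CSF2RB at 313 CPM in TF-1 vehicle replicate 3, IL3RA at 10.5 CPM in TF-1 cyclocreatine replicate 4 and at 18.2 CPM in UT-7 vehicle replicate 1, and EPOR at 1.88 CPM in UCSD-AML1 vehicle replicate 2.

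The response to cyclocreatine differed between lines, by the interaction test with adjusted p under 0.05, in 12 cases (log2 differences). For TF-1 against UT-7 these were KIT at 0.46, IL3RA at -0.44 and IL6ST at -0.34. TF-1 against UCSD-AML1 gave CSF3R at 1.12, KIT at 0.23, CSF2RA at -0.37, CSF2RB at -0.31 and CSF1R at -0.56. UT-7 against UCSD-AML1 gave CSF3R at 0.83, IL6ST at 0.34, CSF2RB at -0.36 and KIT at -0.23. Of these calls, those for CSF2RA, for IL3RA and for KIT between TF-1 and UCSD-AML1 were lost under alternatives given above.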

How the results depend on the processing

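Over all alternatives, 1236 of the values for single receptors kept their direction and side of the threshold, 5 passed only under the alternative, 30 no longer passed and 0 reversed; the changed ones concern CSF2RA, IL3RA, IL6ST, KIT and CSF3R, and the causes were not tested. Total counts of called genes stayed within 1.5 times of the reported totals, but the higher calls for the response of TF-1 against UCSD-AML1 went to 1329 with library totals alone, against 2156 reported, and the receptors among them to 1, against 2. Without 1 library at a time, 6 to 8 receptors were called in TF-1, 5 to 6 in UT-7 and 3 in UCSD-AML1, and 7785 to 8319, 6152 to 6302 and 5245 to 5498 of all genes. Replicate numbers did not pair the libraries (correlations of same-numbered deviations -0.12 to 0.08), and 0, 0 and 1 of the numbers matched best; with a replicate block 7, 6 and 3 receptors and 7882, 6418 and 5574 genes were called, with no receptor's call changed. DESeq2 called 7, 6 and 3 receptors. Depth limits CSF1R in UT-7 and FLT3 in all lines.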
